A study of Mus with 5 samples.

Results

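The GIMAP genes encode GTPases of immunity-associated proteins and sit side by side on mouse chromosome 6. Binding of RARα and BATF was mapped along the 8 members of the mouse cluster named here, Gimap1, Gimap3, Gimap4, Gimap5, Gimap6, Gimap7, Gimap8 and Gimap9. A peak was taken as a GIMAP peak when the gene names assigned to it by the authors held at least 1 of the 8 members, and a peak that named several members was counted once. By this rule 42 of the 27480 peaks in 4 lists were GIMAP peaks. They were 6 of 1172 RARα control peaks, 3 of 597 RARα peaks with RA, 20 of 15812 BATF control peaks and 13 of 9899 BATF peaks with RA.

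GIMAP proteins are small GTP-binding proteins, several of them anchored in membranes inside the cell, and they are best known in lymphocytes. Gimap5 is required for the survival of naive T cells, and animals that lack it lose T cells. Gimap1 is needed for mature T and B cells to persist, Gimap3 is a close relative of Gimap5 that also bears on T cell survival, Gimap4 is tied to the execution of T cell death, and Gimap6 binds the autophagy protein Gabarapl2.

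RARα is the nuclear receptor for retinoic acid (RA), the active form of vitamin A, and BATF is a factor of the AP-1 family that drives effector gene programs in activated T cells. Chromatin immunoprecipitation sequencing (ChIP-seq) pulls down the DNA bound by a protein, and positions where the recovered fragments pile up over a background are called as peaks. CD8 T cells of wild-type mice, labelled as naive and taken from spleen, were stimulated for 24 h through CD3 and CD28 with IL-2, rested for 24 h in 100 U/ml IL-2, and then kept for 1 h either without RA (control) or with 50 nM RA. The question put to the cluster was where both factors bound, whether they bound at the same places, and how 1 h of RA moved them. The sample labels name a different interleukin for each ChIP, from IL-7 to IL-10, in place of the IL-2 of the protocol, and the label of the IgG sample does not say whether its cells received RA.

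Each list was called on a pool of 2 ChIP files against the same IgG file, and nothing states whether the 2 files were separate cultures or repeat runs. With a single list for each condition, the spread between replicates is unknown and no difference between conditions was tested. The intervals given here are 95% intervals for counting error only. The pools held 22655611 fragments (RARα control), 22475060 (RARα, RA), 23110180 (BATF control) and 16424269 (BATF, RA), so the BATF pool with RA had 71.1% of the depth of its control. Binding is given as the number of fragments over the summit of a peak, as fragments per 1000000 fragments of the pool (FPM) where pools are compared, and as the fold over the local IgG level that the authors' peak caller wrote. Of 14 cell type marker genes, BATF control peaks were assigned to the CD8 genes Cd8a (16 peaks) and Cd8b1 (20 peaks) and to Cd3d (5 peaks), and none to Cd4, Ncr1, Lyz2 or Csf1r. Peaks are not expression, so this does not measure how pure the cells were.

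From the first base of Gimap8 to the last of Gimap3 the cluster spans 123.7 kb of the mm10 genome (chr6:48647186-48770851). The genes follow each other in the order Gimap8 (chr6:48647186-48660875), Gimap9 (chr6:48676121-48679116), Gimap4 (chr6:48684578-48692062), Gimap6 (chr6:48701583-48708244), Gimap7 (chr6:48718621-48724636), Gimap1 (chr6:48739047-48743795), Gimap5 (chr6:48746197-48754200) and Gimap3 (chr6:48764464-48770851). Peaks that overlapped between lists were joined into 22 sites. BATF control peaks marked 20 of these sites, and RARα control peaks marked 6.

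**Figure D1:**
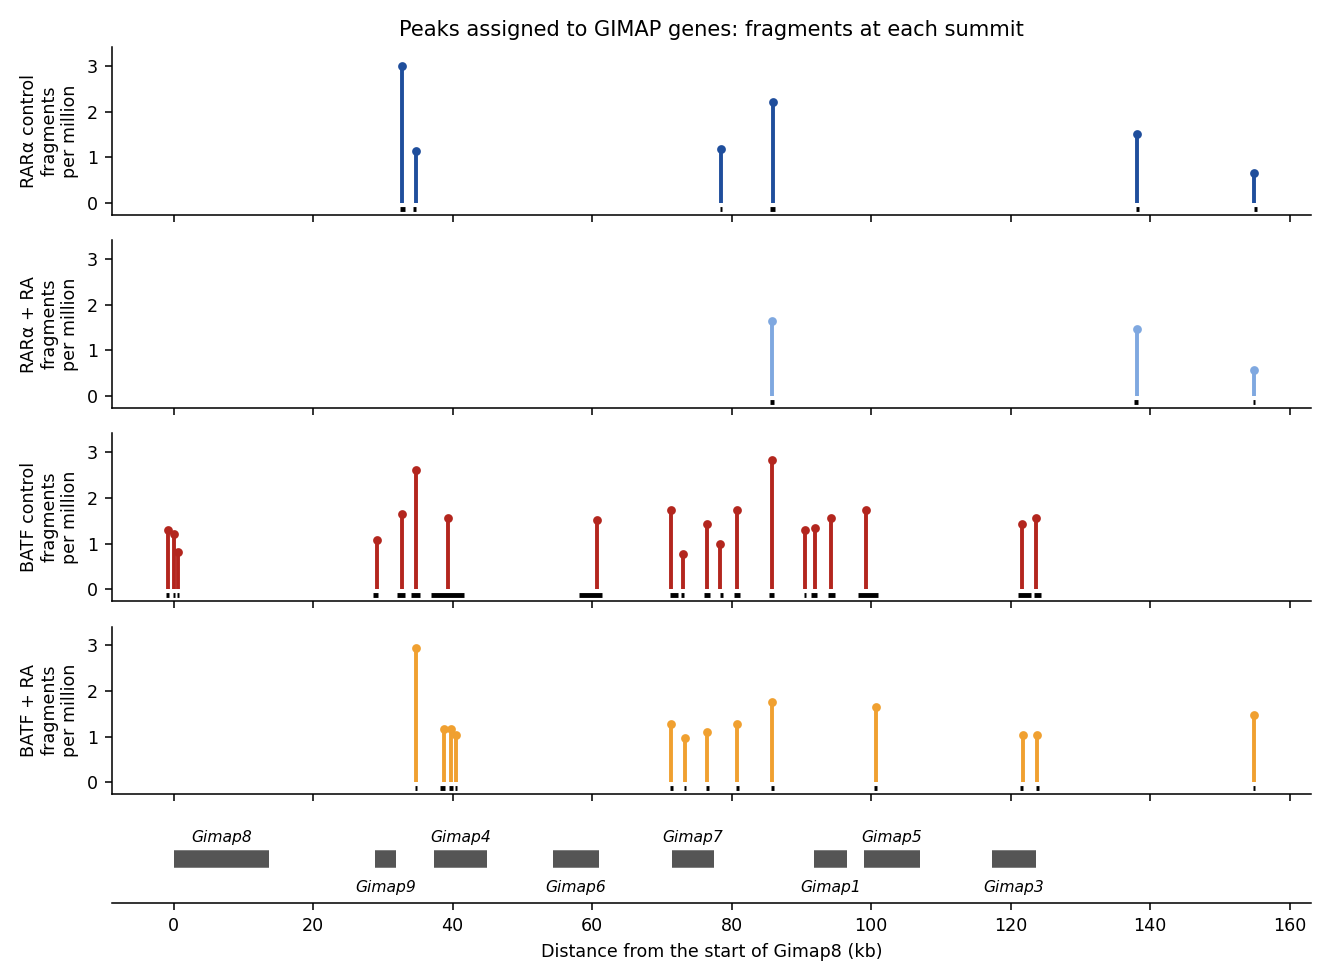
Map of the 42 GIMAP peaks in the 4 lists. The horizontal axis is the distance in kb from the start of Gimap8, the height of each line is the summit level in FPM, the black bars below are the called peaks, and the grey boxes are the genes. BATF control peaks run over all 8 genes, whereas the RARα peaks stand between or beyond the genes, and the tallest RARα control line, at 3.00, has no counterpart with RA.

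The RARα peaks of the cluster lay between genes. All 6 control peaks and all 3 peaks with RA were classed as intergenic and none overlapped a member gene, while intergenic peaks made up 43.8% of the whole RARα control list and 60.0% of the RARα list with RA. The GIMAP peaks were of higher enrichment than the median of their lists. Their median fold over IgG was 4.63 against 3.09 over all RARα control peaks, and 4.28 against 2.87 over all RARα peaks with RA.

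The strongest RARα control peak (chr6:48679607-48680420) began 491 bp beyond the end of Gimap9. The annotation named a repeat of the B2 SINE family for it, but an L1 LINE repeat for the BATF control peak at the same place. Its summit counted 68 fragments at 9.92-fold over IgG, which placed it 17th by fold and 10th by p-value among the 1172 control peaks. Further on, a weaker peak (chr6:48681564-48682012) between Gimap9 and Gimap4 had 26 fragments and a fold of 2.72. The weaker of these neighbouring summits stood on the highest IgG level of the 6 GIMAP RARα control peaks, 9.00 fragment ends against 6 at the stronger one.

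Between Gimap7 and Gimap1 the control list held a peak 897 bp beyond the end of Gimap7 (chr6:48725533-48725780), with 27 fragments and a fold of 4.23. A taller one (chr6:48732662-48733381), which ended 5666 bp before Gimap1, had 50 fragments and a fold of 6.42. The last pair lay outside the cluster, past Gimap3. The nearer (chr6:48785168-48785605), 14317 bp from Gimap3 in an ERV1 long terminal repeat by the annotation, had 34 fragments and a fold of 5.03. The farther (chr6:48802035-48802466), 31184 bp from Gimap3 in an ERVL-MaLR repeat, had 15 fragments and a fold of 3.22. Repeats were named for 3 of the 6 control peaks, against 23.3% of the whole control list.

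The assignment of an intergenic peak to genes was regional and not by nearest gene. The 4 RARα control peaks inside the cluster each named all 8 members together with 1 or more neighbours (9 or 12 genes in all), and no RARα peak named a single member alone. Hence Gimap1, Gimap3, Gimap5, Gimap6 and Gimap7 were each named by all 6 control peaks, Gimap4 by 5, and Gimap8 and Gimap9 by 4. Over 21900 protein-coding genes, 6.85% were named by any RARα control peak and 3.05% by any RARα peak with RA, and only 6 genes, 5 of them GIMAP genes, were named by as many as 6. When distance was used in place of the names, RARα control peaks lay within 10 kb of Gimap9 (2 peaks), Gimap4 (2), Gimap7 (2) and Gimap1 (1), and none lay within 10 kb of Gimap8, Gimap6, Gimap5 or Gimap3. The names for Gimap5 and Gimap3, the survival genes at the far end, thus rested on peaks over 10 kb away.

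BATF bound at or close to every gene of the cluster in the control. By the broad class of the annotation, 15 of the 20 GIMAP peaks were promoter peaks, 1 was in an exon and 4 were intergenic. Peaks of the promoter class made up 58.7% of the whole list. This class was wide, since the detailed annotation placed several of the 15 in introns and others in intergenic sequence or a repeat. Peaks covered 18.9% of the cluster's length in the BATF control list, against 1.80% in the RARα control list. In enrichment the BATF peaks were ordinary for their list, with a median fold of 5.16 against 5.40 over all BATF control peaks. Of all protein-coding genes, 46.2% were named by at least 1 BATF control peak and 36.4% by at least 1 BATF peak with RA.

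At Gimap8, 3 promoter peaks stood around the start of the gene (chr6:48646138-48646506, chr6:48647119-48647420 and chr6:48647708-48647955), with 30, 28 and 19 fragments. The body of Gimap8 beyond them, the longest of the 8 genes, held no GIMAP peak in any list. Gimap9 had 1 promoter peak (chr6:48675806-48676573) with 25 fragments, and another (chr6:48679290-48680369) with 38 fragments began just behind the gene at the place of the strongest RARα peak. Upstream of Gimap4, the BATF peak of second highest summit in the cluster (chr6:48681278-48682537) had 60 fragments and a fold of 5.48. Its class was promoter, whereas the weaker RARα control peak that lay within it was classed as intergenic, so the classes of the 2 factors differ at 1 position. A broad peak of 36 fragments (chr6:48684057-48688898) then covered the start and first introns of Gimap4. Gimap6, the partner of Gabarapl2, had 1 broad peak at its end nearest to Gimap7 (chr6:48705318-48708569), with 35 fragments.

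Gimap7, a member whose GTPase domain dimerises to hydrolyse GTP, had the most BATF peaks nearby, 6 within 10 kb in the control. A promoter peak (chr6:48718361-48719517) had 40 fragments, an intron peak (chr6:48719933-48720332) had 18 and a peak over exon 2 (chr6:48723259-48724073) had 33. Behind Gimap7, a peak 2941 bp past its end (chr6:48727577-48728418) had 40 fragments and the highest fold of the BATF control peaks in the cluster, 8.10. The tallest BATF summit (chr6:48732512-48733304) stood between Gimap7 and Gimap1 with 65 fragments and a fold of 7.24. Gimap1 itself had 3 peaks, with 30, 31 and 36 fragments. Gimap5 had 1 broad peak over its start (chr6:48745345-48748136) with 40 fragments, and Gimap3 had 2, an intronic one with 33 and one at the promoter with 36. No BATF control peak was assigned beyond Gimap3, where the last pair of RARα peaks lay.

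**Figure D2:**
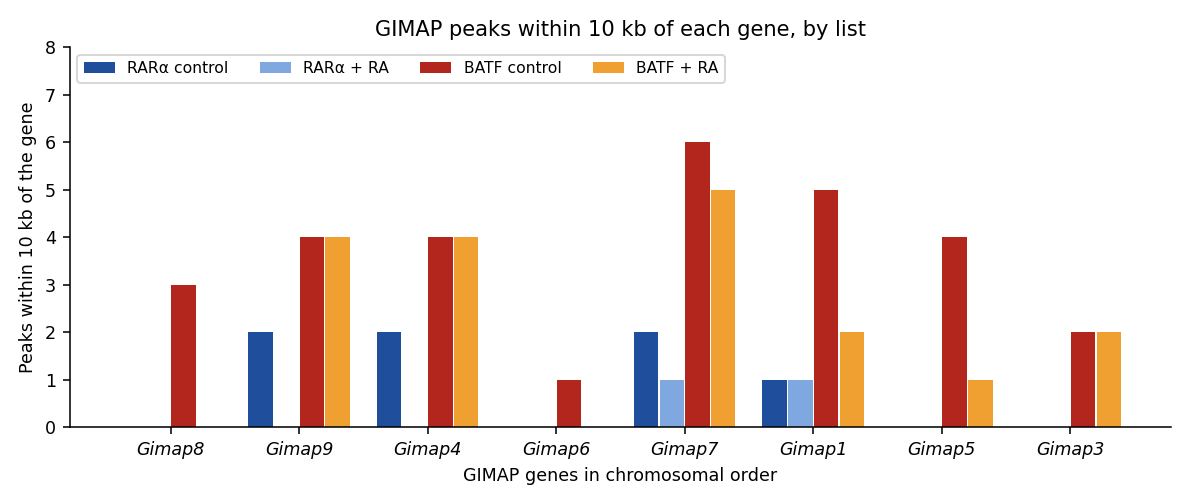
Number of GIMAP peaks within 10 kb of each gene in the 4 lists, with genes in chromosomal order, 1 group of bars per gene and 1 bar per list. A peak within 10 kb of several genes counts for each. BATF control bars stand at every gene and are highest at Gimap7 (6), while Gimap8 and Gimap6 have no bar with RA.

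The cluster was dense in peaks for its length. When the genome was divided into 21224 windows as long as the cluster, 4 RARα control peak midpoints fell inside the cluster, a number reached by 0.0424% of windows, against a mean of 0.0547 per window. For BATF control, 18 midpoints fell inside, a number reached by 0.0283% of windows, with a mean of 0.745. With RA the cluster held 1 RARα midpoint, which 2.56% of windows reached, and 11 BATF midpoints, which 0.0613% reached. These shares describe the lists and are no test, since peaks follow genes and open chromatin.

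Most RARα control peaks of the cluster lay on a BATF peak. Of the 6 RARα control peaks, 4 overlapped a BATF control peak and the same 4 had one within 5 kb (66.7%, Wilson interval 30 to 90.3). Over the whole RARα control list this share was 61.9%, so the share in the cluster was close to that of the list. All 4 lay inside the cluster. The summits were nearly superimposed, with RARα and BATF summits 7 bp apart behind Gimap9, 21 bp apart upstream of Gimap4, 23 bp apart behind Gimap7 and 9 bp apart between Gimap7 and Gimap1. Over the 626 RARα control peaks that overlapped a BATF control peak the median distance was 110.5 bp, and 17.9% were within 25 bp.

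**Figure D3:**
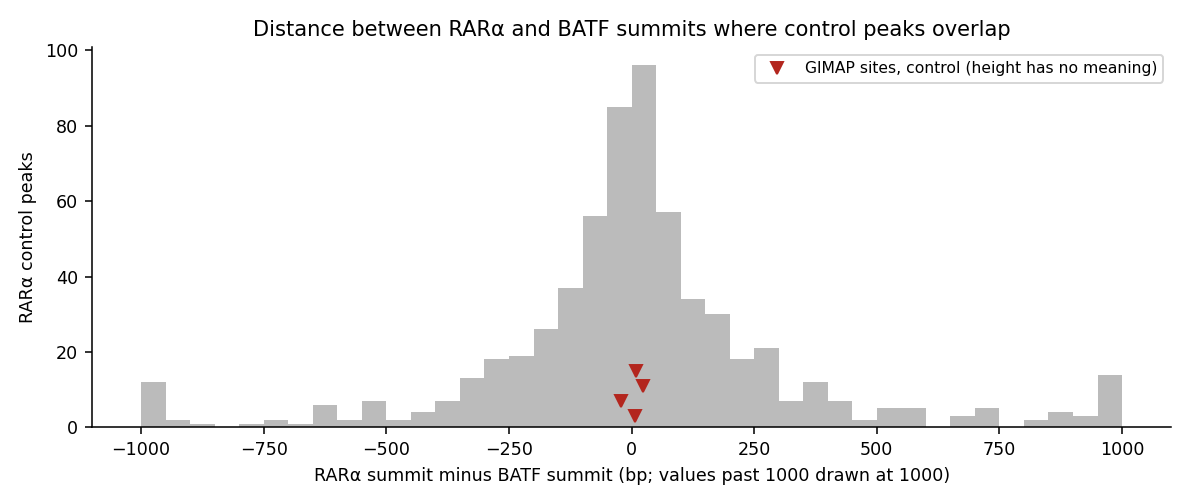
Position of the RARα summit relative to the BATF summit, in bp, for the 626 RARα control peaks that overlapped a BATF control peak. Grey bars count peaks in steps of 50 bp and the red triangles mark the 4 GIMAP sites, which all lie within 25 bp of 0.

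The 2 RARα peaks past Gimap3 had no BATF control peak. At the nearer one neither BATF list had a call, where a call would have taken 20 fragments in the control pool and 16 in the pool with RA at the IgG level of the site. At the farther one BATF was called with RA only. Conversely, 16 of the 22 sites had BATF and no RARα peak in either condition. RARα calls at these sites would have taken 10 to 19 fragments, so weaker RARα binding there was not detectable at this depth.

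With RA, 3 of the 6 RARα control peaks of the cluster remained called at an overlapping position (50.0%, Wilson interval 18.8 to 81.2). Over the whole RARα control list the share was 10.2% within 5 kb. At a p-value of at most 1e-05 in both lists, the share in the cluster was 33.3%, and that of the whole list was not computed. All 3 RARα peaks with RA overlapped a control peak (interval 43.9 to 100), against 19.6% of the RARα list with RA that had a control peak within 5 kb. Between the ends of the cluster, 1 of 4 control peaks remained called, and the other 2 that remained were the pair past Gimap3. No GIMAP peak of RARα was called with RA only. The control peaks of the cluster were also stronger than the list median, as given above, and the part of strength in these shares was not tested here.

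The largest RARα difference in the cluster was at the strongest RARα site, behind Gimap9. The control pool had 68 fragments, or 3.00 FPM, and no peak was called with RA. At the IgG level of this site 15 fragments would have been called in the pool with RA, and at equal binding about 67.5 would have been seen. Taking the 14 fragments that could stay uncalled as the most that were present, RARα with RA was at most 0.208 of the control level (exact interval at that limit, 0.108 to 0.373). Control binding was thus at least 4.82-fold higher before counting error (2.68 to 9.28 at that limit). These limits assume that a summit past the cutoff becomes a call, whereas the caller also asked for a minimum length of about 1 fragment. Behind Gimap7, where the control had 27 fragments and at most 13 could stay uncalled, the limit was 0.485 (0.230 to 0.974). Upstream of Gimap4, with 26 fragments against at most 18, it was 0.698 (0.360 to 1.32), so that equal binding lay inside the interval there.

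The 3 RARα sites that stayed called differed from control by less than their counting error. Between Gimap7 and Gimap1 the summit had 50 fragments in the control and 37 with RA (chr6:48732708-48733239), a ratio of 0.746 in FPM (0.474 to 1.16). At the site 14317 bp past Gimap3 it had 34 and 33, a ratio of 0.978 (0.587 to 1.63), and the peak with RA (chr6:48784930-48785421) carried no repeat annotation. In the ERVL-MaLR repeat it had 15 and 13 (chr6:48801939-48802197), a ratio of 0.874 (0.383 to 1.97). All 3 ratios were under 1, and over all 120 RARα pairs of the lists 65% were lower with RA, with a median ratio of 0.801. The 3 RARα sites called only in the control were the 3 closest to a GIMAP gene, 491, 897 and 2448 bp from Gimap9 or Gimap7.

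**Figure D4:**
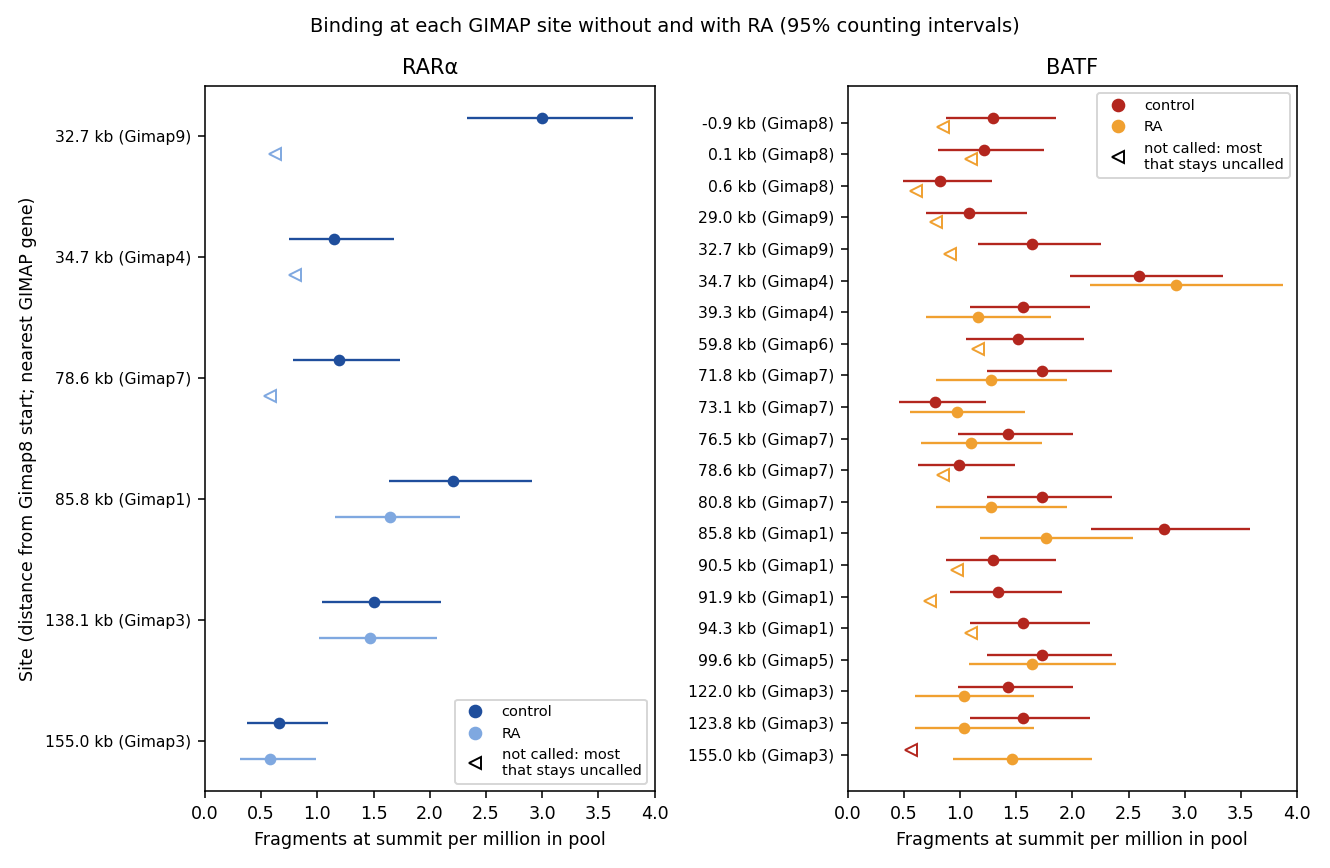
Fragments at the summit in FPM, without and with RA, at each RARα site (left) and each BATF site (right), ordered along the chromosome and named by the distance of the site's middle from the start of Gimap8 and its nearest GIMAP gene. Points are the tallest summit of a site, bars are exact 95% counting intervals, and open triangles mark the highest level that could have stayed uncalled. At the top RARα site the triangle (14 fragments) lies far left of the control point (68 fragments), whereas most BATF triangles lie inside or near the control interval.

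BATF calls in the cluster were fewer with RA, from 20 to 13, and the fall in calls went along with the lower depth of that pool. Of the 20 control peaks, 13 had a peak with RA within 5 kb (65.0%, Wilson interval 43.3 to 81.9), beside 69.9% of all BATF control peaks. Of the 13 peaks with RA, 12 had a control peak within 5 kb (92.3%, interval 66.7 to 98.6), beside 96.3% of the whole BATF list with RA. Peaks with RA covered 4.13% of the cluster's length and had a median length of 440 bp, against 861 bp in the control. In the whole lists the median lengths were 460 and 609 bp.

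At the 10 sites where BATF was called in both conditions, the FPM ratio of summits with RA to control ran from 0.628 to 1.25, with a median of 0.741 beside 0.838 over all overlapping BATF pairs. The ratio was under 1 at 8 of the 10, close to the 77.1% of all overlapping BATF pairs that were lower with RA. The interval lay wholly under 1 at 1 of the 10, the tallest BATF summit between Gimap7 and Gimap1, where 65 fragments in the control stood against 29 with RA (ratio 0.628, 0.391 to 0.99). The 10 intervals were not adjusted for their number. When every control peak was paired with its nearest RA peak within 5 kb, 8 of 13 pairs were lower with RA, beside 66.5% of all BATF pairs.

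The peak upstream of Gimap4 differed by less than its counting error, with 60 fragments in the control and 48 with RA (chr6:48681736-48682114), a ratio of 1.13 (0.754 to 1.67), and became the tallest BATF summit of the cluster with RA, at 2.92 FPM. At Gimap5, whose loss costs T cells, the summits had 40 and 27 fragments (ratio 0.95, 0.561 to 1.59), with the summit of the RA peak (chr6:48747620-48748049) further inside the gene than that of the broad control peak. At Gimap4 the single broad control peak was matched by 3 short peaks with RA in its introns, with 19, 19 and 17 fragments. The Gimap7 promoter, intron and exon peaks had ratios of 0.739, 1.25 and 0.767, and the 2 Gimap3 peaks had 0.725 and 0.664, all with intervals that held 1.

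The other 10 BATF control sites were not called with RA. They were all 3 peaks at Gimap8, both at Gimap9, the 1 peak at Gimap6, the 1 closest behind Gimap7 and all 3 at Gimap1. No BATF peak with RA therefore overlapped Gimap8, Gimap9, Gimap6 or Gimap1. At equal binding the shallower pool would still have held 1.05 to 1.69 times the fragments needed for a call at each of them. The limits on the ratio of RA to control ran from 0.545 to 0.905, and all 10 intervals held 1. A decrease at these 10 sites was thus not separable from counting error, and depth and RA cannot be told apart for the loss of the calls.

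At 1 site BATF appeared with RA. In the ERVL-MaLR repeat 31171 bp past Gimap3 (chr6:48802022-48802262) the pool with RA had 24 fragments and a fold of 7.91, the highest fold of the 13 GIMAP peaks in that list. The deeper control pool had no call there, where at most 13 fragments could stay uncalled, so BATF was at least 2.60-fold higher with RA (1.27 to 5.56 at that limit). RARα was called at the same site in both conditions, and its summit with RA lay 20 bp from the BATF summit. These RARα calls were weak, with 15 fragments in the control and 13 with RA. Neither reached a q-value (the caller's adjusted p-value) of 0.05.

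With RA, 2 of the 3 RARα peaks had a BATF peak within 5 kb (66.7%, Wilson interval 20.8 to 93.9), against 16.4% of the RARα list with RA. At a p-value of at most 1e-05 in both lists, the share in the cluster was 50%, and that of the whole list was not computed. The pair between Gimap7 and Gimap1 was the only site of the 22 with a peak in all 4 lists. Its summits were 9 bp apart in the control and 65 bp apart with RA. The other pair was the site past Gimap3 where BATF was called with RA alone. At the 4 sites that both factors shared in the control, both were called with RA at 1 (between Gimap7 and Gimap1), BATF alone at 1 (upstream of Gimap4) and neither at 2 (behind Gimap9 and behind Gimap7).

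Of 16 annotated genes within 100 kb of the cluster, RARα control peaks named 6, beside 6.85% of protein-coding genes. RARα peaks with RA named 3, beside 3.05%. The highest RARα folds at these neighbours were those of GIMAP peaks, 9.92 or 5.03 in the control and 4.28 or 4.92 with RA. Their names thus came from the regional naming of peaks already chosen for naming a GIMAP gene. They are no separate sign of RARα binding at the neighbours. The 16 were also not restricted to protein-coding genes. BATF control peaks named 4, beside 46.2%, and BATF peaks with RA named 3, beside 36.4%. By distance, none of the 16 had a RARα peak within 10 kb in either condition. BATF control peaks lay within 10 kb of 2, Repin1 and AI854703. The share of all genes with a peak within 10 kb was not computed. Tmem176a and Tmem176b, a pair of transmembrane genes past Gimap3, were named by the RARα peaks past Gimap3, 2 in each condition. Rarres2, a gene known to respond to retinoids, was named by no peak in the 4 lists.

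A list of 19 genes tied to GIMAP proteins or to the survival and homing of resting T cells was also looked up. All 19 were named by a BATF control peak, beside 46.2% of protein-coding genes, and 17 by a BATF peak with RA (Bax and Gsk3b were not), beside 36.4%. A RARα control peak named 9 of the 19, beside 6.85% of protein-coding genes, and a RARα peak with RA named 1, Lef1, beside 3.05%. Bcl2, the survival factor linked to Gimap5 and Gimap3, had 11 BATF control peaks, 9 BATF peaks with RA and 1 RARα control peak of fold 2.83. Gabarapl2, the partner of Gimap6, had 1 and 2 BATF peaks and no RARα peak. Of the trafficking genes, Klf2 was named by 3 RARα control peaks with a highest fold of 7.93, Ccr7 by 2 and S1pr1 by 1. Within 10 kb of the gene lay only 1 of the Klf2 peaks and none of those naming Ccr7 or S1pr1. None of these genes was named by a RARα peak with RA. The list mixes long and short genes with different numbers of neighbours, and nothing was tested on it.

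Gimap7 was the member named by the most peaks over the 4 lists, with 6 RARα control, 3 RARα with RA, 7 BATF control and 6 BATF with RA. Of all genes more than 100 kb away, the one with the most similar numbers was Ifngr1, a chain of the interferon-γ receptor, with 7, 2, 11 and 9 peaks (Euclidean distance 0.904 on log2 of the number plus 1, over the 4 lists). The next were the cytokine gene Lif with 4, 1, 7 and 6 peaks (1.11), the IL-21 receptor gene Il21r with 4, 1, 9 and 9 (1.27), Lef1 with 4, 1, 11 and 7 (1.27) and the kinase gene Pim1 with 4, 1, 10 and 9 (1.31). None of these 5 was named by 3 RARα peaks with RA, the number at Gimap7. That number came from regional naming and was shared by Gimap1, Gimap3, Gimap5 and Gimap6. Only 1 of the 3 peaks lay within 10 kb of Gimap7.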

How the data were processed

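The 4 deposited peak lists of mouse CD8 T cells (RARα or BATF, control or RA) were used. The authors aligned paired-end reads with Bowtie2 and called peaks with MACS 2.2.7.1 on mm10, pooling 2 ChIP files per list against 1 IgG file, at a p-value of 0.001 (RARα) or 1e-05 (BATF). As deposited, pileup is a signal of fragments over the summit, scaled by 0.988 in the BATF control list and divided by that step here. The deposited fold enrichment is a ratio, pileup plus 1 over the IgG level plus 1, from which IgG was recovered. The deposited p-value and q-value are on the −log10 scale.

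Members and gene lists were chosen with earlier results of these data known. Peaks were paired within 5 kb, after the methods. Ratios of summits in FPM have exact intervals and shares have Wilson intervals. The fragments a call would need followed from the caller's Poisson p, which recomputation matched within 0.01 on the −log10 scale for at least 99.8% of peaks. Named genes were the members, genes within 100 kb, a list of 19 genes (1 of which is not reported here by name) and the 5 genes with the most similar peak numbers. Gene positions came from RefSeq for GRCm38.p6, the assembly of mm10. Of the names assigned to peaks, 94.7% or more matched it in every list. Alternatives were stricter thresholds, position rules, merging and other scalings. Motifs and sequences were not analysed here. Steps were tested on simulated data first, and the tools were scipy 1.17.1, pandas 2.3.3, matplotlib 3.10.9, numpy 2.4.6 and Python 3.11.15.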

Additional observations from a re-analysis of the deposited data

Results flagged for a closer look

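At 2 sites the RA to control values of RARα and BATF lay on opposite sides of 1, and this difference was not tested. Upstream of Gimap4 (chr6:48681278-48682537) RARα with RA was at most 0.698 of control, while BATF stood at 1.13 of control. In the ERVL-MaLR repeat past Gimap3 (chr6:48801939-48802466) RARα stood at 0.874 of control, while BATF was at least 2.60-fold higher with RA. The intervals of all but the last of these 4 values held 1.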

How the results depend on the processing

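Over 26 results and 66 alternatives, 59 values kept their direction and stayed within 1.5 times the main value or, for shares of peaks, within its Wilson interval. Of these, the share of RARα RA peaks with a BATF peak nearby fell from 66.7% to 33.3% when BATF peaks were taken from the control. A fold of at least 5 left 3 RARα control, 0 RARα RA, 11 BATF control and 6 BATF RA peaks. Counting only RARα RA peaks between the ends of the cluster left 1, and counting those within 10 kb of a member gene left 1, since the other 2 lie past Gimap3. The median BATF ratio of RA to control, 0.767 over the 13 pairs within 5 kb, was 1.00 with the deposited fold and turned to 1.13 with the pileup over IgG without the added constant. Over the 10 overlapping pairs it was 0.741, and 0.896 with that scaling, a combination chosen after seeing the data. The turn thus arose with the 5 kb pairing, which adds 3 control peaks that overlap no RA peak, while at the 10 overlapping pairs the median stayed under 1 in these scalings and with the deposited fold (0.816). Also chosen after seeing the data, the highest IgG level at any summit of a site moved the limit upstream of Gimap4 to 0.775 for RARα, and the BATF difference past Gimap3 to at least 2.25-fold.

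No paired analysis was possible because each condition has 1 pooled list, which also leaves no replicate to omit. Motif content was not run, since no sequence was used here. Depth limits the BATF list with RA, and the IgG pool of 11410673 fragments limits all local background levels.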
